A study of Homo sapiens with 2 samples.

Results

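The expression of 34 genes that encode enzymes which cut or crosslink the extracellular matrix and the cell surface, and their inhibitors, was examined in HT-29 cells after siRNA against IFITM1. The genes were taken by name, with no threshold on their values, but with earlier results of these data known. They comprise 9 secreted matrix metalloproteinases (MMPs), 3 membrane-anchored MMPs, 7 genes of the ADAM and ADAMTS families, 6 cathepsins, 3 serine proteases, 4 protease inhibitors and 2 lysyl oxidases. All 34 had a probe set among the 19775 genes named on the array, and together they had 80 probe sets. HT-29 is an established human colorectal adenocarcinoma line. Control cells were transfected with siLuc, which targets the firefly luciferase mRNA that human cells do not have. The other cells were transfected with siIFITM1, which targets the mRNA of IFITM1, a membrane protein induced by interferon. Both RNAs were taken 72 h after transfection, and no untransfected cells were analysed here. Each siRNA was read on 1 array. Replicate error is therefore unknown, the comparison is given by size alone, and nothing in the labels gives the siRNA sequences.

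Matrix metalloproteinases are zinc-dependent endopeptidases that degrade collagens, laminins and other matrix proteins, and tissue inhibitors of metalloproteinases (TIMPs) block their active site. ADAM proteins are membrane-bound relatives that release growth factors, cytokine receptors and adhesion molecules from the cell surface. Cathepsins act mainly in lysosomes, and lysyl oxidases crosslink collagen and elastin. In the gut, MMP7 is the MMP made by epithelial cells themselves, whereas many other MMPs are made chiefly by stromal cells and leukocytes.

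Several MMP genes lie side by side on chromosome 11, and the stretch before the start of each gene holds the sites that its transcription factors read. RefSeq promoter sequences of GRCh38.p14 were found for 22 of the 34 genes, which had 25 annotated starts. The 12 without an entry were MMP1, MMP2, MMP3, MMP9, MMP12, MMP13, ADAM9, ADAMTS1, CTSB, TMPRSS2, TIMP2 and LOXL2. The 250 bases before the start were searched on both strands for 4 motifs: AP-1 (TGANTCA), the site of FOS and JUN factors; TCF/LEF (CTTTGA or TCAAAG), the site through which beta-catenin acts; the TATA box (TATAAA, on the gene's own strand); and the GC box (GGGCGG or CCGCCC), the site of SP factors. The promoters of 4 genes are shown, with motif matches in capitals. MMP7 was the only MMP of the chromosome 11 cluster with a signal past the filter, MMP10 is its relative in that cluster, and MMP11 and ADAM15 were past the 1.5-fold line in opposite directions. The stretches were chr11:102530748-102530997 (minus strand), chr11:102780629-102780878 (minus strand), chr22:23772599-23772848 (plus strand) and chr1:155051066-155051315 (plus strand), written 5′ to 3′ along each gene and ending at the last base before its start.
MMP7: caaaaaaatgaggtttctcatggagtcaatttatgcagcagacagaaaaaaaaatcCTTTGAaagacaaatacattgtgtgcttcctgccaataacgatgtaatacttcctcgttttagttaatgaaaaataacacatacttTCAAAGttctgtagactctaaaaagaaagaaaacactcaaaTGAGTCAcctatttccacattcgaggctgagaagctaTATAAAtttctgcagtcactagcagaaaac
MMP10: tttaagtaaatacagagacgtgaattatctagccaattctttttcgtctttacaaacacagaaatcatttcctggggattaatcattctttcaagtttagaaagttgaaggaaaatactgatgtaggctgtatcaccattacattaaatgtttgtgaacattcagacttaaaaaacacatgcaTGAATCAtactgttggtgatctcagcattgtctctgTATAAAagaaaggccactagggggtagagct
MMP11: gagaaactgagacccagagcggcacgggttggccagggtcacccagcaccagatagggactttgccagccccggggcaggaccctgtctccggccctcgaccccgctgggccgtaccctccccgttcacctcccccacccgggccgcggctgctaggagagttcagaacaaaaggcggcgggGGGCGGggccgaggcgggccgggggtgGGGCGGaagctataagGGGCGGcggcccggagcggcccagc
ADAM15: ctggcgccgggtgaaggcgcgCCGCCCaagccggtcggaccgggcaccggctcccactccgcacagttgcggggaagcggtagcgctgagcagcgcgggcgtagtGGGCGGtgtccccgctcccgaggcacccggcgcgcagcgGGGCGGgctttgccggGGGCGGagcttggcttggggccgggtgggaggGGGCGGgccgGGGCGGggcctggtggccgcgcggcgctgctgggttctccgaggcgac

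In both MMP7 and MMP10 the AP-1 match began 67 bases before the start. The TATA box began 30 bases before it in MMP7 and 31 in MMP10. MMP7 also held 2 TCF/LEF matches, at 194 and 108 bases before the start, and no other gene of the 22 held one. MMP11 had 3 GC boxes and ADAM15 had 6, and neither held an AP-1, TCF/LEF or TATA match in this window. SERPINB5 was the third gene with an AP-1 match. Over all 35116 RefSeq starts, 6.57% held the AP-1 letters, 11.2% a TCF/LEF match, 6.8% the TATA letters and 42.6% a GC box. Of the 22 genes, 19 had a GC box before at least 1 of their starts. That count is by gene and the shares are by start, so they are not directly comparable. The matches do not overlap one another in the sequences shown. A match describes the letters and is not evidence that a factor was bound.

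The values are signals of the MAS5 algorithm, on a linear scale in arbitrary units. Probe sets differ in how strongly they bind, so signals are compared between the arrays and not between genes. The log2 ratio is siIFITM1 over siLuc. A gene is represented by its probe set of highest mean log2 signal, and it passed the filter if that mean reached the median over all probe sets, a signal of 57.4. Among those that passed, the term brighter is used from a signal of 393 upwards (the 75th percentile of probe sets) and dimmer below it. A pair of yardsticks is given, both taken within the same 2 arrays. Neither measures replicate error, since no second culture, transfection or array per siRNA enters them. The first is how far the log2 ratios of one gene's probe sets lie apart, as an SD, which was 0.193 for brighter, 0.496 for dimmer and 1.66 for probe sets below the filter. The second is the share of all genes, or of those in the same brightness class, that lay past a fold line. That line was 1.5-fold unless stated otherwise, and not the ratio of the gene in question.

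The IFITM1 signal was 640.0 with siLuc and 237 with siIFITM1, a log2 ratio of -1.43. Of 10 epithelial marker genes 8 were brighter, among them EPCAM and the keratins, while CDX1 and CDX2 were below the filter. Of 8 fibroblast markers 3 passed the filter, all dimmer. COL1A1 went from 323 to 229.8 and DCN from 74.9 to 52.7, while LUM went from 132 to 386, so that the markers moved in both directions. Lysozyme (LYZ), a leukocyte marker that secretory cells of the gut also make, was bright at 23964 and 20614. Of the other leukocyte markers, CD14 (232 and 185) and ITGAM (85.3 and 69.4) passed as dimmer genes, and PTPRC and CD3E were below the filter. Of the endothelial markers PECAM1 passed as a dimmer gene (149.6 and 126), and CDH5, VWF and KDR were below the filter. The part of any such cells in the results was not tested. In RNA from a whole culture, fewer cells that make a transcript and less of it per cell cannot be told apart.

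Of the 34 genes, 24 passed the filter, 18 as brighter and 6 as dimmer. With siIFITM1, MMP7, MMP11 and TIMP2 were at least 1.5-fold higher, and ADAM15 and LOXL2 at least 1.5-fold lower. The 3 higher genes are 12.5% of the 24, where 4.18% of all 12225 genes past the filter were that much higher. Genes and fold line were chosen with earlier results of these data known, so this is not an independent comparison. The 2 lower genes are 8.33%, close to the 7.34% of all genes. None of the 24 was 2-fold apart in either direction, a size that 1.01% of all genes reached on the higher and 2.01% on the lower side. The median log2 ratio of the 24 was -0.12, with 16 below 0, beside a median of -0.02 and 52.6% below 0 over all genes past the filter. Differences were small for most of these genes, since 16 of the 24 lay within 0.3 of 0.

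**Figure D1:**
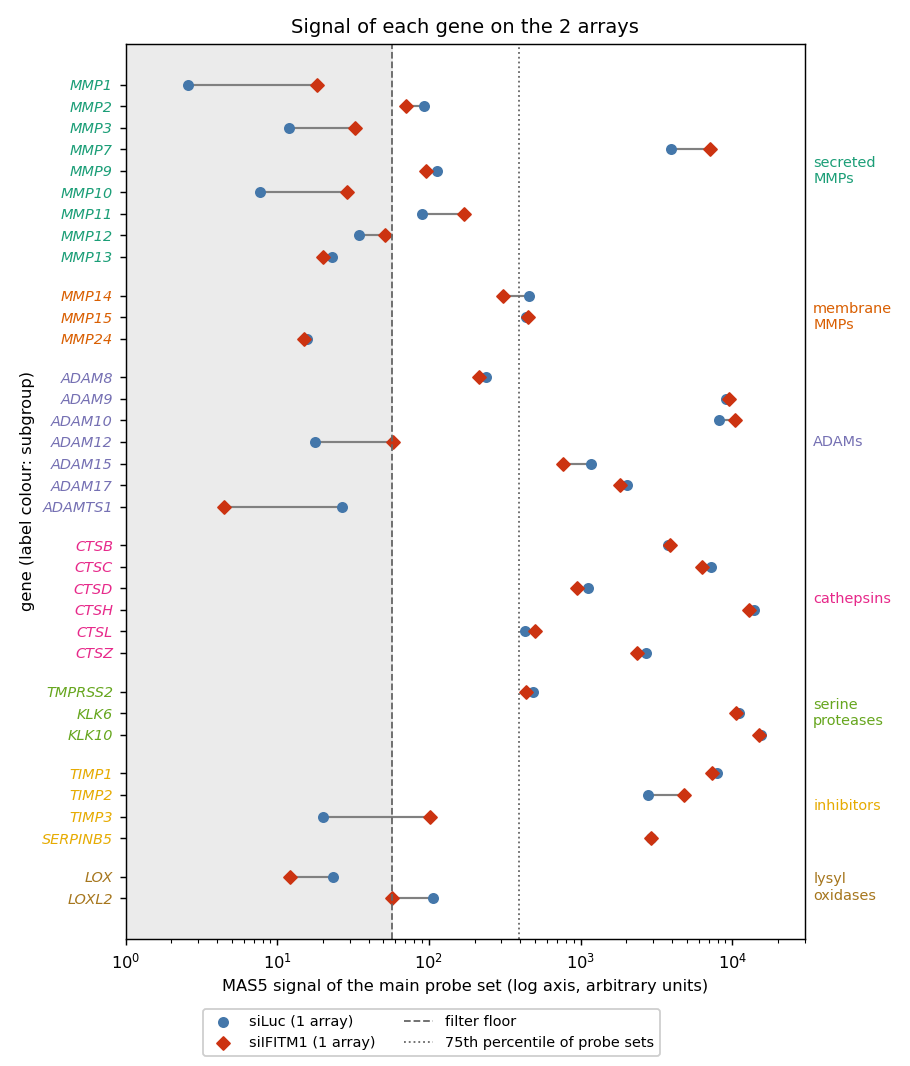
MAS5 signal (log axis, arbitrary units) of the main probe set of each of the 34 genes, with siLuc as circles and siIFITM1 as diamonds, 1 array each. The grey area lies below the filter floor of 57.4, where 10 genes have their mean signal. MMP7 and TIMP2 stand out to the right of the 75th percentile line as the pair whose symbols are farthest apart on the higher side.

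Among the secreted MMPs, MMP7 (matrilysin, Entrez gene 4316), a small MMP that lacks the hemopexin domain of most others, gave a signal of 3958 with siLuc and 7141 with siIFITM1. It was 1.80-fold higher, a log2 ratio of 0.85, beside the SD of 0.193 between brighter probe sets of one gene. Among brighter genes, 1.86% were at least 1.5-fold higher. MMP7 rests on a single probe set, so the ratio has no second reading within the array.

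MMP11 (stromelysin 3, Entrez gene 4320), which is activated inside the cell by furin, went from 90.0 to 169.98, a log2 ratio of 0.92. Its other 3 probe sets were below the filter and also higher with siIFITM1, with ratios down to 0.28. The main probe set is a dimmer one, and the SD for such probe sets was 0.496. Among dimmer genes 8.26% were at least 1.5-fold higher. This probe set holds probes that can match several transcripts, as its ID ending shows, and no MMP11 probe set without that ending passed the filter.

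The gelatinases MMP2 and MMP9, which cleave denatured collagen and basement membrane collagen, were both dimmer and slightly lower. MMP2 (Entrez gene 4313) went from 92.7 to 70.6, a log2 ratio of -0.39. Its other probe sets, below the filter, pointed both ways, at -1.19 and 1.57. MMP9 (Entrez gene 4318) went from 114 to 96.3, a ratio of -0.24. Both ratios were smaller than the SD between dimmer probe sets of one gene.

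The collagenases MMP1 and MMP13, the stromelysins MMP3 and MMP10 and the macrophage elastase MMP12 were below the filter on both arrays. MMP1 gave 2.57 and 18.4, MMP3 gave 11.9 and 32.5, and MMP10 gave 7.72 and 28.7, in the order siLuc and siIFITM1. MMP12 gave 34.7 and 51.3, and MMP13 gave 22.8 and 19.95. These signals lie where probe sets of one gene differed with an SD of 1.66, so no fold is given for them.

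In RefSeq, 9 MMP genes follow one another on chromosome 11 with no other protein-coding gene starting between them, in the order MMP7, MMP20, MMP27, MMP8, MMP10, MMP1, MMP3, MMP12 and MMP13. MMP7, at one end, was the only gene of the 9 past the filter. The other 8 had signals from 2.02 to 51.3 over both arrays. Of these, MMP10, MMP1, MMP3 and MMP12, which are neighbours, read higher with siIFITM1 and MMP20, MMP27, MMP8 and MMP13 read lower, all below the floor. MMP10 shares the placement of AP-1 and TATA letters printed above with MMP7, but its signals of 7.72 and 28.7 give no ratio that can be set beside that of MMP7.

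**Figure D2:**
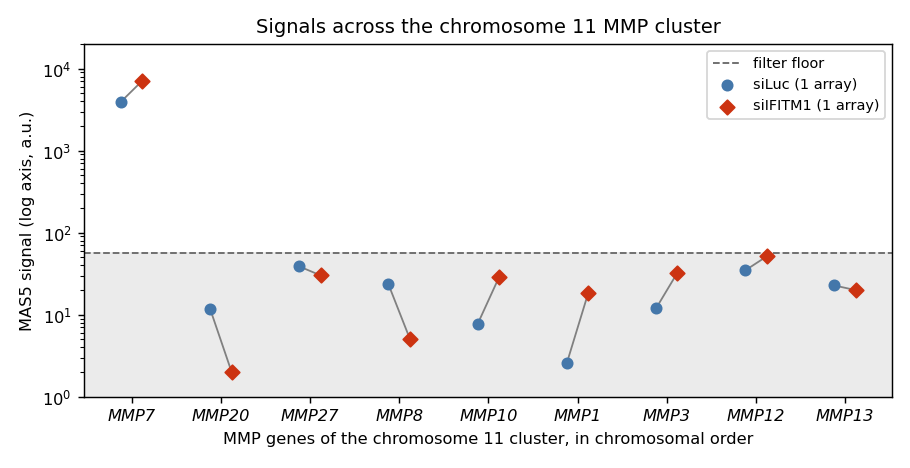
MAS5 signal (log axis, arbitrary units) of the 9 MMP genes of the chromosome 11 cluster in chromosomal order, with siLuc as circles and siIFITM1 as diamonds, 1 array each. MMP7 is at 3958 and 7141, and the other 8 genes lie in the grey area below the filter floor of 57.4.

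Of the membrane-anchored MMPs past the filter, MMP14 was lower and MMP15 was nearly level. MMP14 (MT1-MMP, Entrez gene 4323), a collagenase of the cell surface that also activates the precursor of MMP2, went from 453 to 309.95, a log2 ratio of -0.55 that stops short of the 1.5-fold line. MMP14 counts as a dimmer gene, and the SD between dimmer probe sets of one gene was 0.496. Among dimmer genes 17.1% were at least 1.5-fold lower. Its other 3 probe sets read lower as well, at -0.16 to -0.27, but below the filter, where that SD was 1.66. MMP15 (Entrez gene 4324) was at 433 and 447, a ratio of 0.05, while a second probe set, below the filter, went from 44.8 to 8.13. MMP24, a membrane MMP known mainly from the nervous system, was at 15.6 and 14.9, below the filter on both arrays.

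The inhibitors differed from one another. TIMP2 (Entrez gene 7077), which inhibits MMPs and also forms a complex with MMP14 that takes part in activation of the MMP2 precursor, went from 2785 to 4816, a log2 ratio of 0.79. Its other 2 probe sets went from 1109 to 2111 and from 515 to 824, so all 3 were higher, with ratios of 0.68 to 0.93 (SD 0.13 over the 3 probe sets, which share the 2 samples). The lowest of the 3 was still past the 1.5-fold line. Of the 10 genes among the 24 with several probe sets past the filter, TIMP2 and ADAM15 were the only ones with all of them past that line. The matching share over all genes was not counted. Beside TIMP2, MMP14 and MMP2, the other members of the MMP2 activation complex, had ratios of -0.55 and -0.39. Both are dimmer genes short of the 1.5-fold line, and the SD for dimmer probe sets was 0.496. The other probe sets of MMP2, below the filter, pointed both ways. A change in the complex itself was not tested.

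TIMP1 (Entrez gene 7076), a secreted inhibitor with a wide range of MMP targets, was at 7932 and 7349, a log2 ratio of -0.11. SERPINB5 (maspin, Entrez gene 5268), a serpin regarded as non-inhibitory, was at 2924 and 2920.2, a ratio of -0.00. TIMP3, the matrix-bound inhibitor that also blocks ADAM17, was below the filter by its mean, at 19.95 with siLuc and 102 with siIFITM1. Its other 3 probe sets had signals from 3.82 to 41.1 and ratios of 0.17, -1.24 and -2.71, so its probe sets did not share a direction.

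**Figure D3:**
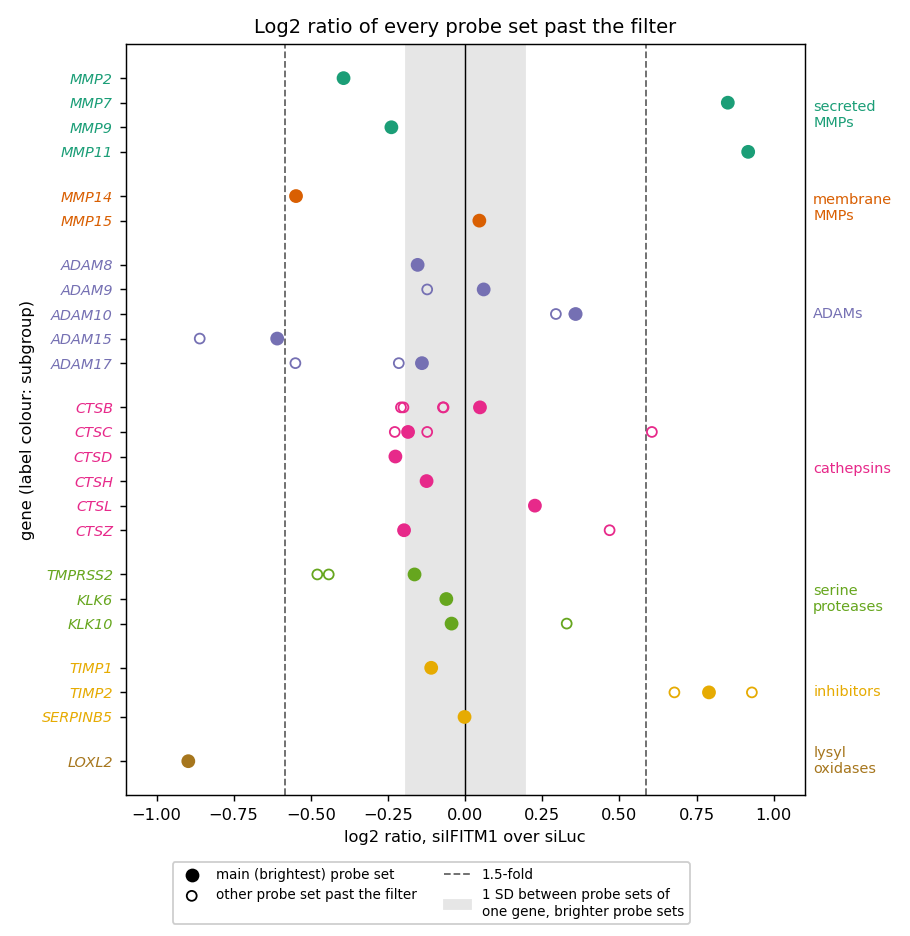
Log2 ratio (siIFITM1 over siLuc) of every probe set past the filter for the 24 genes, with the main probe set filled and the others open. Grey marks 1 SD (0.193) between brighter probe sets of one gene and dashed lines mark 1.5-fold, which all 3 probe sets of TIMP2 exceed on the higher side and both of ADAM15 on the lower side.

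The ADAM sheddases were bright and lay on both sides of 0. ADAM10 (Entrez gene 102), the main sheddase of E-cadherin and a Notch-cleaving enzyme, went from 8165 to 10468, a log2 ratio of 0.36. Its other probe sets went from 881 to 1127 and from 879.7 to 1079, and the 3 ratios lay between 0.29 and 0.36 with an SD of 0.036. The difference is 1.28-fold and thus below the 1.5-fold line, although the 3 probe sets lay close together.

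ADAM17 (TACE, Entrez gene 6868), which releases TNF and EGF receptor ligands, went from 2018 to 1831, a log2 ratio of -0.14, and its other probe sets were at -0.22 and -0.55. All 3 were lower, in the opposite direction to the 3 of ADAM10. ADAM9 (Entrez gene 8754) was at 9113 and 9499, a ratio of 0.06, with a second probe set past the filter at -0.12. Neither ADAM17 nor ADAM9 departed by more than the SD of 0.193 at its main probe set.

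ADAM15 (Entrez gene 8751), a membrane ADAM with an integrin-binding motif, had the lowest ratio of the 5 genes of this subgroup past the filter. It went from 1173 to 769, a log2 ratio of -0.61, and its second probe set from 416 to 229, a ratio of -0.86. Among brighter genes 1.77% were at least 1.5-fold lower. The main ratio sits just past the line and is -0.58 after the median of all log2 ratios is set to 0, which ends the call.

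ADAM8 (Entrez gene 101), best known from leukocytes, was a dimmer gene at 239 and 215, a log2 ratio of -0.15. ADAM12 had 5 probe sets, all below the filter, the main one at 17.6 and 57.8 and the others on both sides of 0. ADAMTS1, a secreted aggrecan- and versican-cleaving enzyme, was below the filter at 26.7 and 4.43.

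All 6 cathepsins were brighter genes, and none reached 1.5-fold. The cysteine cathepsin CTSB (Entrez gene 1508) was at 3751 and 3879, a log2 ratio of 0.05, and its other 4 probe sets were lower, down to -0.21. CTSC (Entrez gene 1075), which activates serine proteases of leukocyte granules, went from 7189.7 to 6326, a ratio of -0.18. Of its other probe sets 2 were lower and 1, a dimmer one, went from 226 to 344, a ratio of 0.61.

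The aspartic protease CTSD (Entrez gene 1509) went from 1114 to 952, a log2 ratio of -0.23. CTSH (Entrez gene 1512), an aminopeptidase, was at 13966 and 12809, a ratio of -0.12. CTSZ (Entrez gene 1522), a carboxypeptidase, was at 2689.8 and 2344, a ratio of -0.20, and its second, dimmer probe set went the other way, from 215 to 297. CTSL (Entrez gene 1514), a cysteine endopeptidase, had the highest ratio of the 6, at 429 and 502, a ratio of 0.23.

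The median over the 6 cathepsins was -0.15, with 4 below 0. It became -0.04 when the ratios of all probe sets of each gene were averaged. The main ratios lay between -0.23 and 0.23, beside the SD of 0.193 between brighter probe sets of one gene, and CTSB, CTSC and CTSZ each had probe sets on both sides of 0.

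The serine proteases gave nearly equal signals on the arrays. The kallikrein gene KLK6 (Entrez gene 5653) was at 11106 and 10647, a log2 ratio of -0.06. KLK10 (Entrez gene 5655), of the same family, was at 15352 and 14891, a ratio of -0.04, and a dimmer probe set was at 0.33. TMPRSS2 (Entrez gene 7113), a transmembrane protease that also primes viral glycoproteins, went from 489 to 436, a ratio of -0.16, and its dimmer probe sets past the filter were lower by more, at -0.48 and -0.44.

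Of the lysyl oxidases, LOXL2 (Entrez gene 4017) went from 107 to 57.3, a log2 ratio of -0.90. The siIFITM1 signal is at the filter floor, and among dimmer genes 17.1% were at least 1.5-fold lower. Its other 3 probe sets, below the filter, had ratios of -2.73, 0.03 and 0.85, so they did not share a direction. LOX, the founding member of the family, was below the filter at 23.2 and 12.1.

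Over the 24 genes, 10 had several probe sets past the filter. In 5 of these all probe sets had the same sign, namely TIMP2 and ADAM10 on the higher side and ADAM15, ADAM17 and TMPRSS2 on the lower side. In ADAM9, CTSB, CTSC, CTSZ and KLK10 they did not. How often probe sets share a sign over all genes was not counted, so these counts have no background. The main probe set of 11 of the 24 has such an ID ending (_s_at or _x_at), and MMP11, LOXL2 and TIMP2 are among these. For TIMP2 both other probe sets lack that ending.

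**Figure D4:**
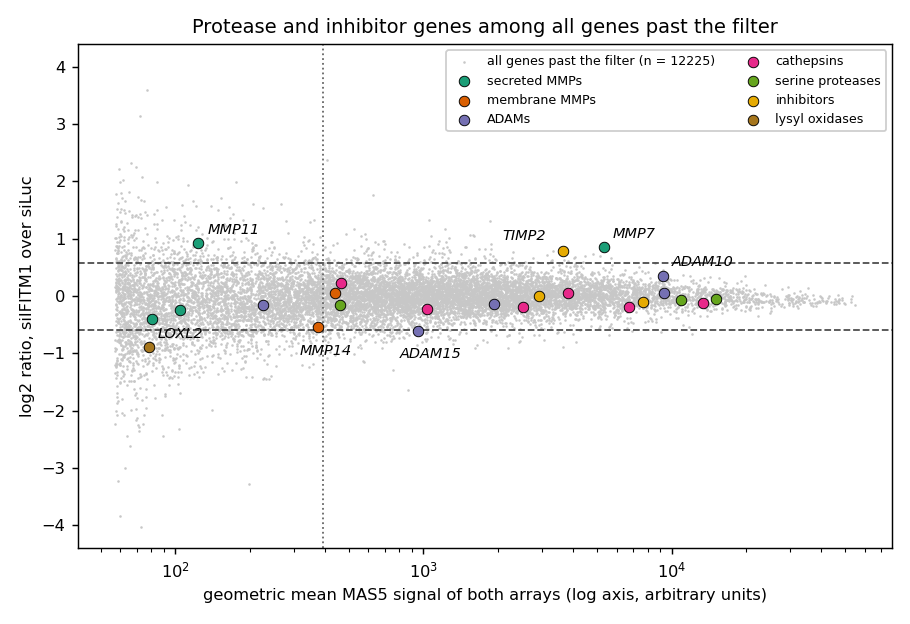
Log2 ratio (siIFITM1 over siLuc) against the geometric mean signal of both arrays (log axis, arbitrary units) for all 12225 genes past the filter in grey, with the 24 protease and inhibitor genes coloured by subgroup. Dashed lines mark 1.5-fold and the dotted line the signal of 393, and grey points spread more widely on its dim side, where MMP11 and LOXL2 lie, than at the signals of MMP7 and TIMP2.

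Related genes from wider lists were read in the same way. Of 102 such genes 100 had a probe set and 74 passed the filter, of which 7 were at least 1.5-fold higher and 9 at least 1.5-fold lower, with a median log2 ratio of -0.12. Over all genes past the filter 4.18% were that much higher and 7.34% that much lower. Of the 74, 36 were dimmer, a class in which 8.26% and 17.1% of all genes reached the line. Only 3 of the other MMPs passed, all dimmer and lower. MMP16 was at -0.27 and MMP25, a GPI-anchored MMP of leukocytes, at -0.71. MMP28 was at -1.49 at its main probe set and 0.33 at another, and is named because it completes the 3, a choice made after its value was seen.

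Of 8 other ADAM and ADAMTS genes past the filter, 7 were below 0 and 7 were dimmer. ADAMTS10 went from 284 to 129 (log2 ratio -1.13), ADAMTS9 was at -0.97 and ADAMTS12 at 0.58. At their main probe sets, the partners that carry or regulate ADAM10 and ADAM17 lay between -0.23 and 0.45, and none of 8 reached 1.5-fold. The iRhom genes RHBDF1 and RHBDF2, whose products escort ADAM17, were at -0.17 and -0.23, with the tetraspanin gene TSPAN33 at 0.45. Other probe sets lay farther from 0. The 4 of FRMD8 past the filter were all higher, from 0.16 at the main one up to 1.12. The 3 of TSPAN5 were all lower, down to -0.51. FRMD8 and TSPAN5 are named for this spread, a choice made after their values were seen.

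Among 11 other cathepsins and lysosomal proteases past the filter, 3 were at least 1.5-fold higher and 1 lower, all dimmer genes. They included the collagen-degrading CTSK at 0.87, CTSF at 0.87 from a siLuc signal of 43.0 below the floor, and CTSO at -0.80. Cystatins, which inhibit cysteine cathepsins, were split with 3 of 6 below 0. CST3, the secreted cystatin C, went from 4862 to 3682 (log2 ratio -0.40), and all 3 of its probe sets were lower. CSTA went from 116 to 43.0, below the floor, and CST4 was at 0.88 from a siLuc signal of 57.2, just below the floor. Both are dimmer genes.

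Of 15 other protease inhibitors, 9 were below 0. SERPINA1, alpha-1-antitrypsin, went from 6995 to 4762, a log2 ratio of -0.55, with all 3 probe sets past the filter lower. A2M was at -0.90, and SERPINB9, the granzyme B inhibitor, went from 334 to 515, a ratio of 0.62. Of 14 other serine proteases of the epithelial surface 1 was past 1.5-fold, KLK7 at 0.64 from a siLuc signal of 56.0, below the floor, with HPN at 0.55 and KLK12 at -0.49. Of 9 other crosslinking genes 7 were below 0, with P4HA2 at -0.45 and PLOD1 at -0.40, both collagen hydroxylase genes, and LOXL4 at 0.79, a dimmer gene.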

How the data were processed

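Total RNA of 2 HT-29 samples, 1 per siRNA, was labelled with biotin and read on 1 single-colour array each, per the labels' protocols. The deposited values are intensities, probe set signals made with MAS5 per the submitters' processing notes, which give no version in the sources used here. Their mean after 2% was trimmed at each end was 500.1 on both arrays, so they had been scaled to a common level. With 1 array per siRNA, the number of arrays limits the precision.

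Gene values came from probe sets with a single named gene, with symbols updated by Entrez identifier through RefSeq (GRCh38.p14). Signals were taken to log2 without further scaling. The calculation was tested on simulated data. The planted shifts were larger than the ratio of any of the 24 genes, and the noise was the same for all probe sets. That test checks the code and not calls of the sizes given here. The genes, lists and fold line were chosen with earlier results of these data known. All 34 genes are named, and of each wider list up to 3 with the largest absolute ratio among genes past the filter whose probe sets past it share a sign. Genes of the wider lists named outside this rule are marked as such. Alternatives were median centring, quantile normalization, a loess trend (span 0.3) subtracted, a pseudocount of 32, signals raised to the floor, no filter or one at the 75th percentile, the mean over probe sets, omission of probe sets ending in _x_at or _s_at, and fold lines of 1.3 and 2. Python 3.11.15, numpy 2.4.6, pandas 2.3.3, statsmodels 0.14.6 and matplotlib 3.10.9 were used.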

Additional observations from a re-analysis of the deposited data

How the results depend on the processing

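No paired analysis was possible because each siRNA had 1 array. TIMP2 stayed at least 1.5-fold higher in all 9 other settings of scaling, filter and probe set choice, at log2 ratios of 0.78 to 0.93. The filter settings and the raised floor could not move its ratio, since its probe sets are bright. MMP7 also stayed past 1.5-fold, at 0.84 to 0.89. With 1 bright probe set, only centring, quantile normalization, the loess trend and the pseudocount could move it. The count of lower genes went from 2 to 1 with median centring, where ADAM15 dropped out and 6.51% of all genes were lower. It was also 1 with the filter at the 75th percentile (1.77% of all genes) and without probe sets ending in _x_at or _s_at (8.06%). LOXL2 dropped out of both of these, as did MMP11. This left 2 higher genes, of 18 and of 16 genes, beside 1.86% and 5.16% of all genes. With the mean over probe sets 4 genes were lower, MMP15 and TMPRSS2 being added through probe sets below the filter, and 4 were higher, with SERPINB5 added. Of all genes, 10.5% were lower and 6.71% higher in that setting. With no filter 8 genes were higher and 4 lower, beside 14.2% and 18.0% of all genes. At a fold line of 2, 0 of the 24 genes were higher and 0 lower, beside 1.01% and 2.01% of all genes. At 1.3 the counts were 3 higher and 4 lower, beside 10.1% and 14.4% of all genes. The median log2 ratio lay between -0.13 and -0.05 in these 9 settings.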
